A study of Homo sapiens with 18 samples.

Results

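Mitochondrial ribosomal proteins are the nuclear-encoded MRPL and MRPS proteins that, with RNA made in the mitochondrion, build the ribosome of the organelle. Here they are the rows of the deposited gene table whose symbol is MRPL or MRPS followed by a number and, for a few, the letter A, B or C. The rule uses names and no measured value. It found 77 of the 17017 genes in the table, 49 of the large subunit (MRPL) and 28 of the small subunit (MRPS).

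The cells were MDA-MB-231, an established human triple-negative breast carcinoma line, transduced with lentiviral pLKO.1 vectors that carried a scramble control or a short hairpin RNA against fibrillarin. Fibrillarin (FBL) is the methyltransferase of box C/D snoRNPs, which add 2'-O-methyl groups to cytosolic ribosomal RNA. The labels call the treatments SC, SH2 and SH3, and SC is taken to be the scramble control. All groups were selected in puromycin (1 µg/ml, 96 h) and treated with cycloheximide (100 µg/ml, 5 min), which stalls cytosolic ribosomes, before lysis. Part of each lysate was kept as input RNA, and the rest was digested with RNase I to give footprints of ribosomes collected as monosomes on sucrose gradients. Each of the 6 groups (3 treatments, RNA or footprints) had 3 libraries, 18 in all. The labels do not say whether replicates were separate transductions or cultures, or whether cells were cloned, so p-values measure the spread between these libraries.

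The mitochondrial ribosome makes the few membrane proteins of oxidative phosphorylation that mitochondrial DNA encodes. Its own proteins are all made by cytosolic ribosomes and imported, so footprints on MRPL and MRPS mRNAs report cytosolic translation. Some members descend from bacterial ribosomal proteins (47 here), and 30 were counted as specific to mitochondria. Names do not always give the place: the proteins of MRPS30 and MRPS18A sit in the large subunit, and MRPS36, now named KGD4, joins the α-ketoglutarate dehydrogenase complex. MRPS17 was not analysed here.

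The promoters and transcript starts of members are shown because growth-linked genes differ in these features. Cytosolic ribosomal protein mRNAs typically start with a C and a run of pyrimidines (a TOP start, which links translation to growth signals), whereas promoters of many nuclear genes for mitochondria hold sites of ETS-type factors such as GABP. Sequences are from RefSeq on GRCh38.p14, 5′ to 3′ on the gene's strand. The first 15 bases of the transcript follow, with the leading pyrimidine run in capitals, for 5 members and 2 cytosolic ribosomal protein genes.
MRPS34 (chr16:1773120-1773134, minus strand): ggacgcggacccgcc
MRPL20 (chr1:1407279-1407293, minus strand): atttccgacccgggc
MRPL42 (chr12:93467514-93467528, plus strand): attgaaacaagatgg
MRPL37 (chr1:54200167-54200181, plus strand): CTCattcgttcccag
MRPS27 (chr5:72320226-72320240, minus strand): CCTTTTggtacgctc
RPS6 (chr9:19380222-19380236, minus strand): CTCTTTTCCgtggcg
RPS27 (chr1:153990762-153990776, plus strand): CCTTTCCggcggtga

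RefSeq gave a promoter entry for 68 of the 77 members. A C followed by at least 4 pyrimidines opened 6 of them (8.82%): MRPL44, MRPL45, MRPL53, MRPS2, MRPS27 and MRPS33. The share was 6.82% of 13249 genes and 74.6% of 63 cytosolic ribosomal protein genes. The letters CCGGAAG, the core of an ETS site, were sought on both strands of the window from 250 bases before to 50 bases after the start. They were in 30 members (44.1%) and in 18.6% of all promoters. The letters AANATGGCG, where N is any base and which resemble the site of YY1, were in 18 members (26.5%) and in 6.48% of all promoters. The 120 bases before the start are printed for 3 members with more than 1 match, with CCGGAAG (or its reverse complement) and AANATGGCG in capitals.
MRPS34 (chr16:1773135-1773254, minus strand): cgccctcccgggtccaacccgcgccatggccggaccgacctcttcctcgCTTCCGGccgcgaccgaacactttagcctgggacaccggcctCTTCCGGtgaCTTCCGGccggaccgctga
MRPL20 (chr1:1407294-1407413, minus strand): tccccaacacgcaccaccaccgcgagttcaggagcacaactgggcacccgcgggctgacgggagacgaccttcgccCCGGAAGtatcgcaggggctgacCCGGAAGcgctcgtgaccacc
MRPL52 (chr14:22829767-22829886, plus strand): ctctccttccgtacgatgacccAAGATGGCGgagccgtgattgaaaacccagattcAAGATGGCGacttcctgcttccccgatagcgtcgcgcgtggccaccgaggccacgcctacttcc

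RNA libraries held 23469830 to 27629488 counts and footprint libraries 1662705 to 6098648. Members made up 0.413% to 0.519% of RNA counts and 0.445% to 0.599% of footprint counts. A member's median count was between 16 and 4744 in RNA and between 0 and 466 in footprints. FBL RNA was 349 to 421 counts per 1000000 (CPM) in SC, 1.26, 4.52 and 11.2 CPM in SH2, and 2.95 to 4.15 CPM in SH3, so both hairpins lowered their target. SH2 replicate 3 had the highest FBL of the knockdown libraries, also in footprints (30.1 CPM beside 5.18 and 4.43). VIM, CD44 and AXL, high in this line, were at 256 CPM or more in every RNA library, and ESR1, PGR and CDH1 at 0.449 CPM or less. RefSeq lists at least 1 pseudogene for 41 members and an overlapping coding gene for 17, and reads of these may be shared.

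In RNA, members moved in both directions. Against SC, 19 members were called higher and 21 lower in SH2 (edgeR, adjusted p below 0.05), beside 31.1% and 30.4% of all 12710 genes tested. In SH3, 22 were higher and 8 lower, beside 27.8% and 25.2% of all genes. The median change of the members was -0.04 (log2) in SH2 and 0.05 in SH3, and that of all genes was 0.01 and 0.03. All RNA libraries of the members as a whole lay close: their mean log2(CPM + 1) was 5.59 to 5.65 in SC, 5.55 to 5.57 in SH2 and 5.61 to 5.81 in SH3. Without SH3 replicate 2, 14 in place of 22 members were called higher in SH3. 

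Among members lower in RNA with both hairpins, MRPL42, specific to the mitochondrial large subunit, had the largest fall. Its RNA was at 109, 105 and 114 CPM in SC, 38.6, 53.3 and 36.3 CPM in SH2, and 53.7, 55.5 and 52.1 CPM in SH3. Every SC library was higher than every knockdown library. The change was -1.36 (log2, SE 0.13, edgeR adjusted p = 9.53e-07) with SH2 and -1.03 (SE 0.13, adjusted p = 1.75e-05) with SH3. MRPS36 RNA was 24.6, 24.6 and 22.8 CPM in SC, 13.3, 16.6 and 10.6 CPM in SH2, and 12.6, 11.2 and 11.5 CPM in SH3, again with no overlap. It fell by 0.83 on the log2 scale in SH2 and by 1.03 in SH3. RefSeq lists 6 pseudogenes each for MRPL42 and MRPS36, so how reads were shared among copies bears on both. MRPL13 (-0.59 and -0.52) and MRPL35 (-0.50 and -0.42), which have bacterial counterparts, were called lower too. MRPL23, which lies at the polypeptide exit tunnel, changed by -0.68 and -0.81 at a low level (5.39 ± 1.10 CPM in SC, SD, n = 3).

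Members higher in RNA with both hairpins were led by MRPS9, MRPL48, MRPL18, MRPL24 and MRPL21. MRPS9, a small subunit protein with a bacterial counterpart, was at 15.3, 26.9 and 19.2 CPM in SC, 29.8, 33.7 and 27.2 CPM in SH2, and 42.3, 42.5 and 43.1 CPM in SH3. The SH3 libraries stood above all others. The change was 0.56 (SE 0.16, edgeR adjusted p = 0.00808) with SH2 and 1.06 (SE 0.16, adjusted p = 0.000111) with SH3. MRPL48, a protein of the central protuberance, rose by 0.63 and 0.95. MRPL18, which also lies in the central protuberance, was at 30.5, 50.7 and 46.1 CPM in SC, 84.6, 79.5 and 88.1 CPM in SH2, and 54.1, 68.8 and 61.1 CPM in SH3. SH2 was highest, and no knockdown library overlapped with SC. Its changes were 0.99 in SH2 and 0.53 in SH3, and the latter was not called without SH3 replicate 2 (0.41, adjusted p = 0.0712). MRPL24 rose by 0.56 and 0.63, and MRPL21 by 0.64 and 0.50.

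**Figure D1:**
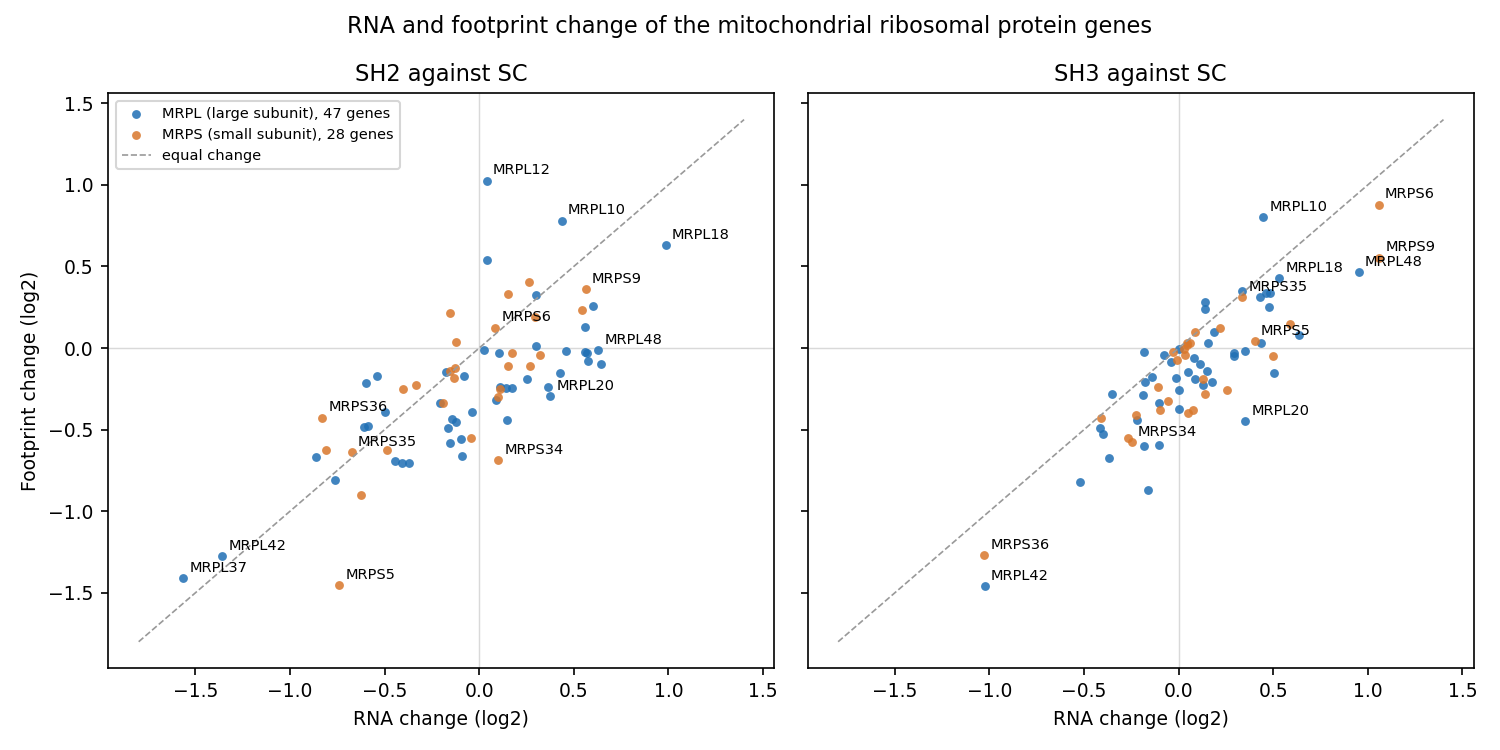
Each point is 1 of the 75 members tested in RNA and in footprints, with its RNA change (horizontal axis, log2) and its footprint change (vertical axis, log2) against SC for SH2 (left) and SH3 (right). The dashed line marks equal change. MRPL37 and MRPS5 lie at the lower left in SH2 and near or right of 0 in SH3, and most points with raised RNA lie below the dashed line.

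RNA of MRPS5 and MRPS35 was called lower with SH2 and higher with SH3. MRPS5, a small subunit protein near the mRNA entry, was at 94.0, 95.6 and 89.0 CPM in SC, 51.4, 64.4 and 50.9 CPM in SH2, and 116, 133 and 119 CPM in SH3. The 3 treatments did not overlap. The change was -0.74 (SE 0.11, edgeR adjusted p = 4.41e-05) with SH2 and 0.40 (SE 0.11, adjusted p = 0.00556) with SH3. MRPS35, a mitochondria-specific small subunit protein, was at 52.0, 58.0 and 55.9 CPM in SC, 36.3, 34.8 and 32.9 CPM in SH2, and 62.9, 77.4 and 69.2 CPM in SH3. SH2 was lowest and SH3 highest, without overlap. Its changes were -0.67 and 0.34, and the SH3 call was lost without SH3 replicate 2 (0.22, adjusted p = 0.100) and without SH3 replicate 3 (0.31, adjusted p = 0.0502).

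Compared directly, 17 members were lower and 3 higher in SH2 than in SH3 in RNA, beside 20.4% and 18.9% of all genes. The higher count was 6 without SH2 replicate 2 and 0 without SH2 replicate 1 or SH3 replicate 3, and the lower count 11 without SH3 replicate 2. The lower group held 8 MRPL and 9 MRPS genes. MRPL37, a mitochondria-specific large subunit protein, differed most. Its RNA was at 204, 195 and 223 CPM in SC, 66.2, 67.9 and 76.4 CPM in SH2, and 187, 212 and 207 CPM in SH3. Only the SH2 libraries were low, and SC and SH3 overlapped. SH2 was below SH3 by a log2 difference of -1.53 (SE 0.10, edgeR adjusted p = 1.25e-07), while SH3 against SC was -0.04 (SE 0.09, adjusted p = 0.743). For MRPS5 the difference between hairpins was -1.14 and for MRPS35 -1.01, both called. MRPS30 was at 89.0 ± 2.14, 50.8 ± 2.33 and 91.9 ± 7.46 CPM in SC, SH2 and SH3 in turn (SD, n = 3). Its difference between hairpins was -0.86 and its change in SH3 0.05, which was not called. MRPL39 and MRPL19 were also lower in SH2 than in SH3, by -0.98 and -0.66, with changes of 0.12 and -0.10 in SH3 that were not called.

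MRPL17, MRPL18 and MRPS34 made up the higher side of that comparison, with differences of 0.33, 0.46 and 0.35. All 3 differences were small, and none of the 3 was called without SH2 replicate 1 or without SH3 replicate 3. MRPL18 and MRPS34 were also not called without SH2 replicate 3 or SH3 replicate 1. MRPS6, a small subunit protein with a bacterial counterpart, is named here after its values were seen, as the gene that rose most in SH3 beside MRPS9. Its RNA was at 11, 19.3 and 14.8 CPM in SC, 17.4, 15.1 and 15.4 CPM in SH2, and 30.3, 32.3 and 31.2 CPM in SH3. The SH3 libraries stood apart from the other two treatments. The change was 1.06 in SH3 and 0.08 in SH2, and SH2 minus SH3 was -0.97 (SE 0.16, edgeR adjusted p = 0.000345).

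**Figure D2:**
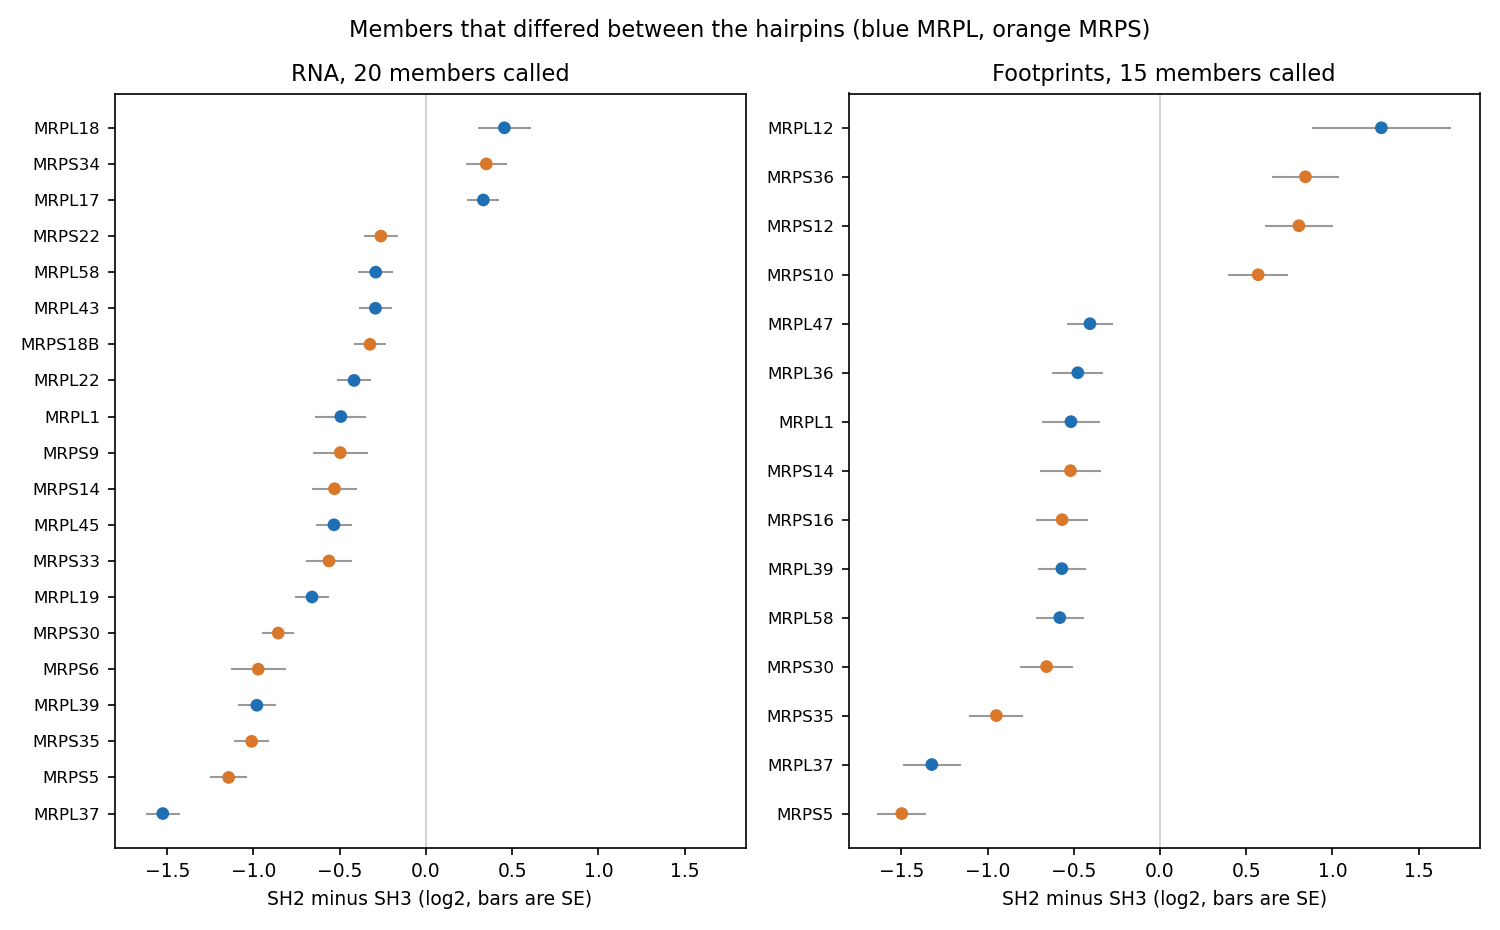
Log2 difference SH2 minus SH3 (horizontal axis, bars are SE) for members called between the hairpins in RNA (left, 20 members) and footprints (right, 15 members), blue for MRPL and orange for MRPS. Most called members lie left of 0, that is, lower in SH2, with MRPL37 and MRPS5 farthest.

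In footprints, more members were called lower than higher with both hairpins. In SH2, 25 of the 75 members tested were lower and 4 higher, beside 23.2% and 21% of 10345 genes. In SH3, 13 were lower and 2 higher, beside 19% and 16.9% of all genes. The share lower in SH3 was thus near that of all genes, and the shares higher were below it with both hairpins. The median change was -0.23 in SH2 and -0.10 in SH3, beside -0.00 and -0.01 over all genes. As a whole the members' mean log2(CPM + 1) in footprints was 5.97 to 6.05 in SC, 5.73 to 5.84 in SH2 and 5.82 to 5.93 in SH3, and neither knockdown overlapped with SC. Without SH2 replicate 3, the counts in SH2 were 16 lower and 2 higher, and without SC replicate 3, 2 were higher. Without SH3 replicate 3, the count lower in SH3 was 8, and the count higher in SH3 was 5 without SC replicate 1 and 1 without SC replicate 3 or SH3 replicate 3. Fewer ribosomes on each mRNA and fewer mRNAs cannot be told apart in footprints alone, and CPM values are shares of a library, not amounts per cell.

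MRPL42 fell most in footprints among members called lower with both hairpins, from 84.1, 77.5 and 83.4 CPM in SC to 34.1, 30.5 and 37.2 CPM in SH2, and 39.8, 27 and 24.2 CPM in SH3. No knockdown library came near SC. The changes were -1.27 (SE 0.17, edgeR adjusted p = 3.32e-05) with SH2 and -1.46 (SE 0.18, adjusted p = 2.72e-05) with SH3. MRPL33, a small large-subunit protein with a bacterial counterpart, was at 52.0, 48.9 and 48.3 CPM in SC, 30.7, 40.8 and 27.5 CPM in SH2, and 32.2, 24 and 26.3 CPM in SH3. SC lay above all other libraries, although MRPL33 RNA was not called in either hairpin (-0.15 and -0.16). Its footprint change was -0.58 in SH2 and -0.87 in SH3, and the SH2 call was lost without SH2 replicate 1 (-0.52, adjusted p = 0.0555) and without SH2 replicate 3 (-0.45, adjusted p = 0.0804). MRPL14, at the interface of the subunits, fell by 0.71 and 0.67, and MRPL13 by 0.48 and 0.82. The SH2 call of MRPL13 was lost without SC replicate 2 (-0.35, adjusted p = 0.0706), SH2 replicate 1 (-0.45, adjusted p = 0.0617) or SH2 replicate 3 (-0.43, adjusted p = 0.0770).

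MRPL10 was the member with raised footprints in both hairpins. It forms the base of the ribosomal stalk. Its footprints were at 38.0, 34.5 and 40.8 CPM in SC, 61.5, 62.5 and 72.2 CPM in SH2, and 48.6, 77.7 and 70.5 CPM in SH3. All knockdown libraries exceeded SC. The rise was 0.78 (SE 0.17, edgeR adjusted p = 0.00174) with SH2 and 0.80 (SE 0.17, adjusted p = 0.00221) with SH3, with RNA up by 0.44 and 0.45. MRPL12, the stalk protein that MRPL10 holds, had few footprints: 4.55, 5.90 and 4.26 CPM in SC, 7.41, 6.76 and 15.2 CPM in SH2, and 2.34, 3.08 and 5.96 CPM in SH3. SH2 replicate 3 stood above all others. The change in SH2 was 1.03 (edgeR adjusted p = 0.0286) and without that library 0.58 (adjusted p = 0.223). The call was also lost without SC replicate 1 (adjusted p = 0.0610), without SC replicate 3 (adjusted p = 0.0959) and by DESeq2 (adjusted p = 0.0513). The RNA of MRPL12 was not called (0.04 in SH2 and 0.00 in SH3).

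Between the hairpins, 11 members were lower and 4 higher in SH2 in footprints, beside 11.6% and 12.1% of all genes. The lower count was 6 without SH2 replicate 3 and 7 without SH2 replicate 2 or SH3 replicate 2, and the higher count was 2 without SH2 replicate 3 or SH3 replicate 2. MRPS5 footprints were at 143, 120 and 125 CPM in SC, 52.6, 46.4 and 43.1 CPM in SH2, and 136, 137 and 128 CPM in SH3. SH2 stood apart, and SC and SH3 overlapped. The difference between hairpins was -1.50 (SE 0.14, edgeR adjusted p = 4.94e-06). For MRPL37 it was -1.32, for MRPS35 -0.95 and for MRPS30 -0.66. The higher side held MRPL12 (1.28), MRPS36 (0.84), MRPS12 (0.81) and MRPS10 (0.57). MRPS36 footprints were 54.9, 70.8 and 51.8 CPM in SC, 45.9, 39.9 and 45.3 CPM in SH2, and 19.9, 22.3 and 29.8 CPM in SH3. The order SC, SH2, SH3 held without overlap. Its change was -0.43 in SH2 (adjusted p = 0.0597, and 0.0496 with the replicate number as a block) and -1.27 in SH3 (adjusted p = 0.000126). MRPS12, which shapes the decoding centre, was at 31.3 ± 2.75, 41.3 ± 2.76 and 23.1 ± 6.54 CPM in SC, SH2 and SH3 in turn (SD, n = 3). Its change from SC was not called in either hairpin (0.41 and -0.40). MRPS10 changed by 0.33 in SH2 (adjusted p = 0.124, and 0.0494 with the replicate block).

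**Figure D3:**
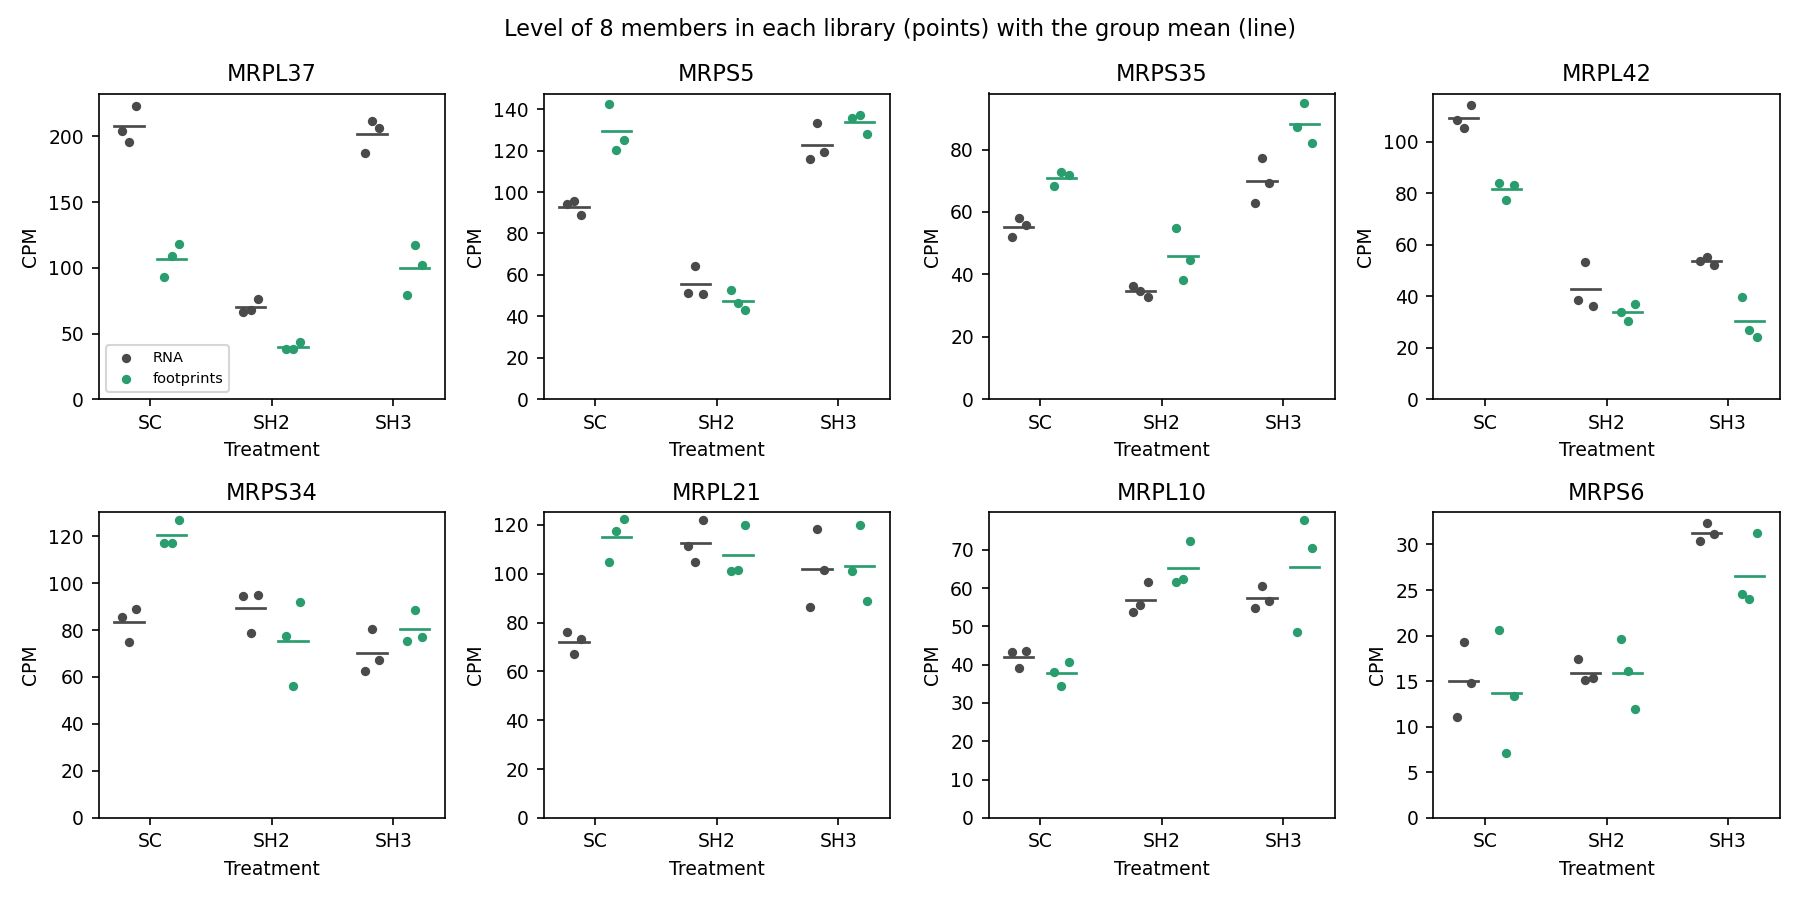
CPM (vertical axis, from 0) in every library of 8 members by treatment, with points for libraries and lines for group means, RNA in grey and footprints in green. MRPL37, MRPS5 and MRPS35 are lowest in SH2, MRPL42 is low in both hairpins, and MRPS34 footprints in SH2 lie below SC while its RNA there overlaps with SC.

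A rise in RNA was seldom matched by a call in footprints. Of the 19 members with raised RNA in SH2, 2 (10.5%) were called higher in footprints, beside 53.7% of the 3361 genes with raised RNA among all genes tested in both. In SH3 it was 2 of 22 (9.09%), beside 47.7% of 3109 genes, and MRPL20 was called higher in RNA (0.35) and lower in footprints (-0.45). Of the members with lowered RNA that were tested in footprints, 15 of 20 (75.0%) in SH2 and 6 of 7 (85.7%) in SH3 were lower in footprints, beside 60.8% and 60.7% of all such genes. Footprints were lower with no RNA call for 10 members in SH2 and 6 in SH3, and higher with no RNA call for 2 members in SH2. These shares are counts of calls, and no test compared the members with other genes. MRPS9, MRPL48 and MRPL18 show how 1 control footprint library bears on this. The RNA and footprint libraries numbered 1 in SC may not be from 1 lysate. Over genes tested in both, deviations of SC RNA 1 from the group mean correlated with those of SC footprints 1 at -0.497. With those of SC footprints 2 they correlated at 0.584. In SC replicate 1 their RNA was the lowest of the SC libraries and their footprints the highest (49.4, 47.4 and 65.3 CPM, beside 21.1 and 35.3, 26.5 and 23.8, and 40.4 and 48.1). With SC replicate 1 left out, their footprint changes in SH3 were 0.88, 0.88 and 0.66, all called, in place of 0.55, 0.46 and 0.43, none called.

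The footprint-to-RNA ratio, often called translational efficiency, was tested as the footprint change minus the RNA change in 1 model of all libraries. In SH2, 3 members were called lower and none higher by edgeR, beside 2.46% and 1.44% of 12531 genes. In SH3 no member was called by edgeR, beside 0.311% lower and 0.375% higher. DESeq2's Wald test called 11 members lower in SH2 and 4 in SH3. Its share over all genes was not counted, so the edgeR shares are no background for its calls. At an unadjusted p below 0.05, 23 members were lower and 3 higher in SH2, beside 10.2% and 7.74% of all genes. At that level 14 were lower and none higher in SH3, beside 7.23% and 5.33% of all genes. The median ratio change was -0.26 in SH2 and -0.20 in SH3, beside -0.02 and -0.04 over all genes, and 50 and 66 of the 77 members lay below 0. The 77 include MRPL23 and MRPL30, which had too few footprints for the footprint fit. With RNA and footprints paired by replicate number, the members' mean log2 ratio was 0.356 to 0.460 in SC, 0.163 to 0.272 in SH2 and 0.117 to 0.217 in SH3. Both knockdowns thus lay below SC without overlap, and the hairpins overlapped with each other. Between the hairpins no member was called by edgeR, beside 0.0160% of all genes lower and 0.00% higher, and DESeq2 called 1 lower. At an unadjusted p below 0.05, 8 were higher and 8 lower, beside 6.19% and 5.55% of all genes.

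MRPS34, a mitochondria-specific protein of the small subunit, was the member with the lowest ratio change in SH2. Its RNA was at 85.6, 75.0 and 89.1 CPM in SC and 94.4, 78.5 and 95.0 CPM in SH2. Its footprints went from 117, 117 and 127 CPM in SC to 77.4, 56.2 and 91.9 CPM in SH2, so RNA overlapped and footprints did not. The ratio change was -0.80 (SE 0.20, edgeR adjusted p = 0.0302). In SH3 the footprints were at 75.5, 88.7 and 77.1 CPM, and the ratio change of -0.32 was not called. Its RNA in SH3 was at 62.5, 80.6 and 67.1 CPM, a change of -0.25 that was not called (edgeR adjusted p = 0.0884) but was without SH3 replicate 2 (-0.40, adjusted p = 0.0204) and with only SC and SH3 fitted (-0.28, adjusted p = 0.0487). The gene overlaps EME2. MRPL21 had RNA at 76.0, 67.1 and 73.1 CPM in SC and 111, 105 and 122 CPM in SH2, with footprints at 105, 118 and 122 CPM and 101, 102 and 120 CPM. RNA rose and footprints overlapped, and the ratio change was -0.75 (SE 0.18, adjusted p = 0.0248). MRPS5 fell more in footprints than in RNA in SH2. Its ratio change was -0.73 (SE 0.17, edgeR adjusted p = 0.0188, and 0.0545 with same-numbered RNA and footprints as a block). With footprints thinned to 1 depth it was -0.64 (adjusted p = 0.0525). With only SC and SH2 fitted, neither MRPS5 (adjusted p = 0.0576) nor MRPS34 (adjusted p = 0.0703) was called. The number may not mark 1 lysate in SC and SH2, since RNA and footprints numbered 1 and 2 there did not correlate by number. With the libraries of 1 SC or SH2 number left out in turn, MRPL21 changed by -0.70 to -0.84. MRPS34 changed by -0.72 to -0.92 and MRPS5 by -0.61 to -0.86. MRPL21 was still called without SC replicate 1 alone. MRPS34 was still called without SH2 replicate 2 or 3, and MRPS5 without SC replicate 2 or SH2 replicate 1. The count of members lower in the ratio in SH2 was 0 without SC replicate 3, 1 without SH2 replicate 3 and 5 without SC replicate 2.

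**Figure D4:**
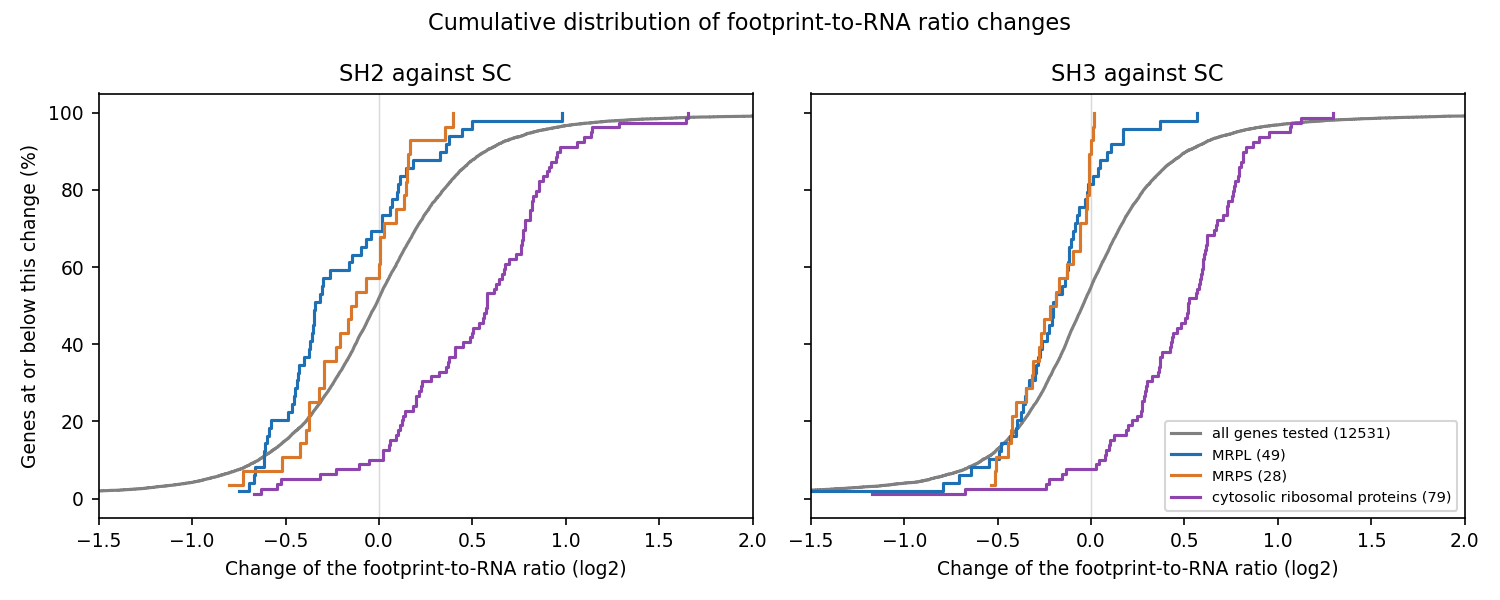
Cumulative share of genes (vertical axis, %) at or below a given change of the footprint-to-RNA ratio against SC (horizontal axis, log2) for all genes tested, MRPL, MRPS and cytosolic ribosomal protein genes; the tails run beyond the axis. From the median up, the MRPL and MRPS curves lie left of all genes, and they cross that curve at the lowest changes. The cytosolic ribosomal protein curve lies right of it over most of its length, in SH2 (left) and SH3 (right).

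Cytosolic ribosomal protein genes, most of which open with a TOP start, are the closest family for comparison. For the 79 of them the median RNA change was -0.63 in SH2 and -0.57 in SH3, the median footprint change -0.04 and -0.06, and the median ratio change 0.58 and 0.52. Among them 35 in SH2 and 19 in SH3 were called higher in the ratio, beside 1.44% and 0.375% of all genes. The SH3 count was 2 without SC replicate 3 and 31 without SC replicate 1, and the SH2 count was 19 without SH2 replicate 3. The members' medians in the ratio, -0.26 and -0.20, have the opposite sign.

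In footprints, more genes of the large subunit were lower than higher, and so were genes of the small subunit. Of these, 18 of 47 MRPL and 7 of 28 MRPS genes were lower in SH2, beside 23.2% of all genes, and 11 and 2 in SH3, beside 19%. The MRPS share lower was near the background in SH2 and under it in SH3, and the MRPL share in SH3 was near it. Higher were 4 MRPL and 0 MRPS genes in SH2, beside 21%, and 1 and 1 in SH3, beside 16.9%. The median footprint change was -0.24 for MRPL and -0.16 for MRPS in SH2, and -0.14 and -0.06 in SH3. In RNA, 15 MRPL genes were higher and 13 lower in SH2, with 4 and 8 for MRPS, and in SH3 15 and 7, with 7 and 1 for MRPS. Of all genes, 31.1% were higher and 30.4% lower in SH2, and 27.8% and 25.2% in SH3, so the MRPL share higher in SH2 and the MRPS share lower in SH2 were near the background. The median ratio change was -0.34 for MRPL and -0.14 for MRPS in SH2, and -0.20 for both in SH3. Per library, the mean footprint level of MRPL was above that of MRPS by 0.270, 0.400 and 0.371 (log2) in SC, 0.277, 0.307 and 0.372 in SH2, and 0.283, 0.355 and 0.324 in SH3. These ranges overlap. In RNA the difference was 0.317 to 0.397 in SC, 0.380 to 0.474 in SH2 and 0.317 to 0.356 in SH3, where SH2 lay above SH3 and its range overlapped with that of SC. Between same-numbered libraries, SH2 exceeded SC in this difference by 0.0838, 0.0627 and 0.0774, all of 1 sign. In the ratio the mean of MRPS was lower in SH2 than in the same-numbered SC library in all 3 pairs, with differences of -0.140, -0.117 and -0.0784. The ranges overlap when RNA and footprints are paired by number. Correlations did not bear out that pairing for numbers 1 and 2 of SC and SH2. Without SC replicate 1, the median ratio change in SH2 was -0.19 for MRPL and -0.04 for MRPS. Over the 31 members with neither a listed pseudogene nor an overlapping coding gene, a choice made after the data were seen, the MRPS median in SH2 was 0.068, of the opposite sign. Members with a bacterial counterpart and those specific to mitochondria had median footprint changes of -0.19 and -0.25 in SH2, and -0.19 and -0.02 in SH3.

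**Figure D5:**
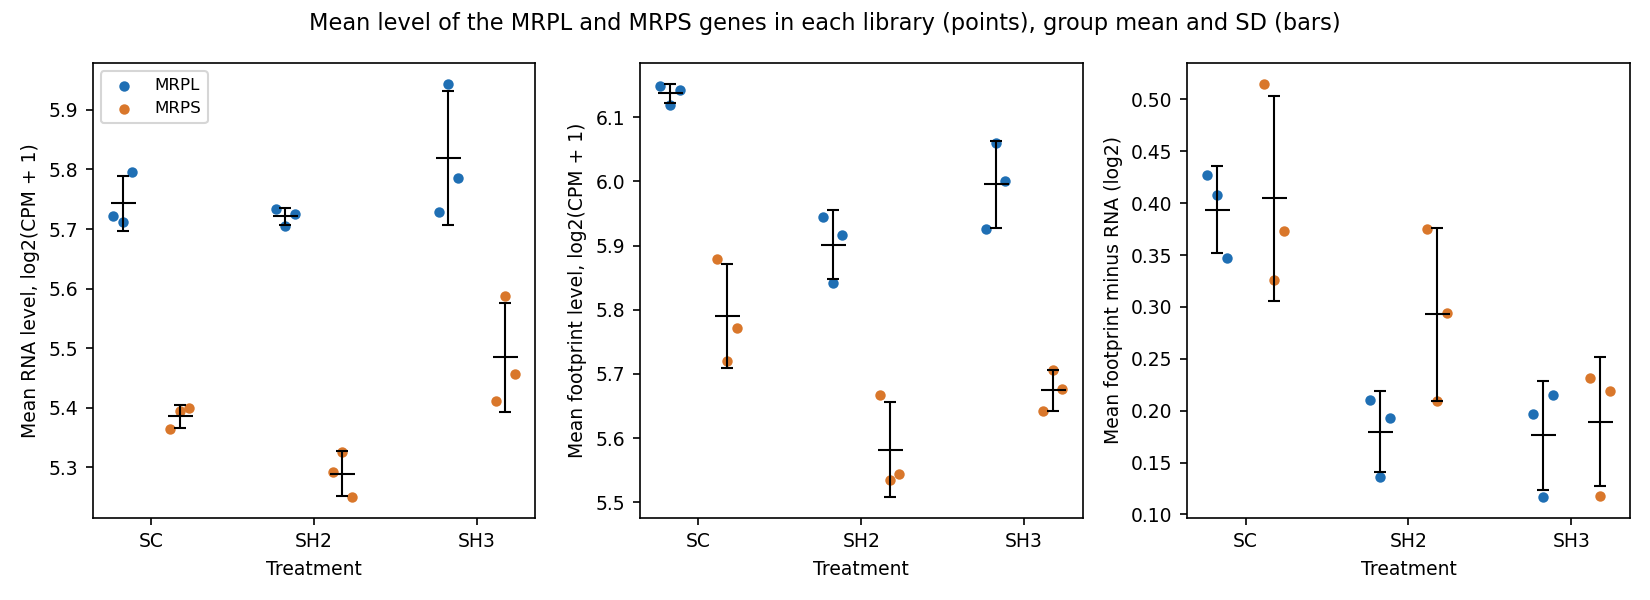
Mean level of the MRPL (blue) and MRPS (orange) genes in every library by treatment: RNA and footprints as mean log2(CPM + 1), and the mean log2 footprint-to-RNA ratio, with group mean and SD as bars. SC footprints of MRPL lie above both hairpins, and the ratio of MRPL is below SC in all 6 knockdown libraries, whereas the range of MRPS ratios in SH2 overlaps with that in SC.

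MRPS18A, MRPS18B and MRPS18C are paralogues that occupy different places in the mitochondrial ribosome. MRPS18A RNA rose from 26.1 ± 0.788 CPM in SC to 38.0 ± 3.22 CPM with SH2 and 36.9 ± 2.29 CPM with SH3 (SD, n = 3), by 0.54 and 0.50 on the log2 scale, both called. MRPS18B RNA was at 82.3 ± 2.27, 65.3 ± 6.28 and 81.8 ± 3.20 CPM, with a change of -0.33 in SH2 that was called and -0.01 in SH3. MRPS18C changed by -0.19 and 0.03, neither called. None of the 3 was called in footprints or in the ratio.

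In SC, the footprint-to-RNA ratio of CPM had a median of 1.37 over the 77 members and 0.888 over 10335 genes tested in both. It was highest for MRPS24 (3.72), MRPS21 (3.54) and MRPS14 (2.98), all of the small subunit, and MRPS21 has 9 listed pseudogenes. The value of MRPS24 rests on 38, 35 and 42 RNA counts and 29, 18 and 28 footprint counts in SC. That gene has 1 listed pseudogene and overlaps URGCP-MRPS24. The lowest ratios with footprints present were those of MRPL12 (0.423), MRPL37 (0.514) and MRPS12 (0.617). Gene lengths cancel in this ratio only if RNA and footprints were counted over the same region, which was not checked here. MRPL30 had RNA at 0.314 to 1.10 CPM and no footprint count in any of the 9 libraries, where a count of 0 allows up to 3 counts per library. MRPL23 had 33, 6 and 14 footprint counts in SC, 10, 6 and 8 in SH2, and 2, 0 and 0 in SH3. Both fell below the low-count filter for footprints and were not tested there, but both were kept in the ratio fit.

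Other genes of the pathway were taken from lists, and their counts in RNA stand beside 31.1% of all genes higher and 30.4% lower in SH2, and 27.8% and 25.2% in SH3. Of 5 mitoribosomal proteins with other symbols, DAP3 was called higher in RNA (0.27 in both hairpins) and CHCHD1 lower in footprints in SH2 (-0.46). The calls of DAP3 were lost without SC replicate 2 or 3, that in SH2 also without SH2 replicate 3 and that in SH3 without any 1 SH3 replicate. The call of CHCHD1 was lost without SC replicate 1 or any 1 SH2 replicate. Of 28 assembly and rRNA maturation factors, 8 were higher and 4 lower in RNA in SH2, and 12 and 1 in SH3. Without SH3 replicate 2, 6 of these factors were higher in SH3, and without SH2 replicate 3, 5 were higher in SH2. MALSU1, an anti-association factor that binds the large subunit at MRPL14, changed by -1.42 and -0.51 in RNA and by -1.43 and -0.86 in footprints, all called. Of 17 translation factors, 6 were higher and 1 lower in RNA in SH2, and 9 and 1 in SH3 (5 higher without SH3 replicate 2). The elongation factor gene GFM1 rose by 0.81 and 0.67 in RNA and by 1.09 and 0.66 in footprints. Of 9 transcription factors and coactivators of nuclear genes for mitochondria, 5 were higher in RNA in each hairpin, with 2 lower in SH2 and 1 in SH3. ESRRA rose by 1.29 and 0.93 and MYC by 0.72 and 0.80, whereas GABPA (-0.08 and 0.06) and NRF1 (-0.07 and 0.01) were not called. 

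All 13 mRNAs that mitochondrial DNA encodes, which the mitochondrial ribosome translates, were lower in RNA with both hairpins, with median changes of -1.52 and -1.17. MT-ND1 RNA was at 5313 ± 1980, 1781 ± 301 and 2358 ± 321 CPM in SC, SH2 and SH3 in turn (SD, n = 3). The SC libraries varied most. In footprints all 13 were lower in SH2 (median -1.76) and 4 in SH3 (median -0.64), and none was called in the ratio in either hairpin (edgeR; medians -0.31 and 0.42; none at an unadjusted p below 0.05 or by DESeq2). The SH3 footprint count ran from 0 without SH3 replicate 3 to 11 without SC replicate 3. Cycloheximide does not stall the mitochondrial ribosome, and its part in these values was not tested. Whether the footprint counts of these mRNAs report mitochondrial ribosomes was not tested either.

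Members split by the promoter letters CCGGAAG differed in how often RNA was called. With the letters, 9 of 30 were higher and 2 lower (6.67%) in SH2, beside 36.2% and 26.3% of 2296 genes with the letters. Without them, 7 of 38 were higher and 15 lower (18.4% and 39.5%), beside 29.4% and 31.4% of 8004 genes. In SH3 the counts were 11 and 1 of 30 with the letters, beside 32.4% and 19.6% of all genes with them, and 8 and 3 of 38 without, beside 27% and 26.4%. MRPS34, MRPL20 and MRPL52, whose promoters are printed above, had ratio changes of -0.80, -0.69 and -0.62 in SH2, of which that of MRPS34 was called. They do not stand for their group: the median ratio change in SH2 was -0.37 over the 30 members with the letters and -0.25 over the 38 without. The stretch printed for MRPL52 holds AANATGGCG and no CCGGAAG. Split by AANATGGCG, 6 of 18 members with these letters were higher and 8 lower in RNA in SH2, beside 29.8% and 33% of 821 genes. Without them it was 10 and 9 of 50, beside 31% and 30%. In SH3 it was 4 and 2 of 18, beside 31.8% and 19%, and 15 and 2 of 50, beside 27.9% and 25.4%. Both splits were made with the members' changes known and were not tested.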

How the data were processed

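The deposited table holds raw counts per gene for 18 libraries and the authors' log2 fold changes with p-values and adjusted p-values. The signal columns the authors deposited, counts divided by DESeq2 size factors per the file headers, were not used for tests. Per the submitters' processing notes, Bowtie 1.2.2 and DESeq2 were used; the build and annotation are not given in the sources used here. Counts per gene were tested with edgeR 4.0.16 (filterByExpr, TMM, quasi-likelihood test, Benjamini-Hochberg over all genes tested, called at adjusted p below 0.05) in R 4.3.3. RNA (9 libraries), footprints (9 libraries) and the ratio (18 libraries, interaction contrast) were fitted separately. CPM is counts per 1000000 of the TMM-scaled library, and library means use log2(CPM + 1). SE is the log2 change divided by the square root of F.

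Members and lists were chosen with earlier results of these data known. Named members were chosen by a rule: those called in both hairpins with the highest and lowest mean change (up to 5 each), those called in opposite directions, the 3 with the lowest p in each direction between hairpins, all ratio calls, members below the filter, and MRPL12, MRPS12, MRPS18A, MRPS18B, MRPS18C, MRPS30 and MRPS36. Levels per coding length were planned and not made, since no protein lengths were used here. PTCD1 and MRPS17 were not analysed here.

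On data simulated from the real means, library sizes and common dispersions for SH2 against SC, the RNA fit (12551 genes) recovered 100% of 100 genes changed by 1 on the log2 scale, the footprint fit (10196 genes) 90% and the ratio fit (12363 genes) 68%. The changed genes were drawn only from those above a cut on SC counts, and spreads did not differ by gene. Recovery for the members themselves was not measured. No 2 replicate libraries agreed within sampling noise. Replicate numbers paired SC with SH2: same-numbered libraries correlated over 0.1 in every pair, 0.345 to 0.373 in RNA and 0.252 to 0.300 in footprints. They did not do so for SH3. RNA and footprints did not pair by numbers 1 and 2 in SC and SH2. In SC, RNA 1 with footprints 1 was at -0.497 and RNA 2 with footprints 2 at -0.469. RNA 1 with footprints 2 was at 0.584 and RNA 2 with footprints 1 at 0.466. In SH2 these were -0.309, -0.311, 0.570 and 0.503. Number 3 was at 0.267 in SC and 0.509 in SH2, and SH3 at 0.209 to 0.430. Ratios per library and the block for the ratio use the number. Alternatives were DESeq2 1.42.0, its size factors, no filter, the groups compared only, leaving out each replicate, a replicate block, footprints thinned to 1 depth, a threshold of 0.01 and other member lists.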

Additional observations from a re-analysis of the deposited data

Results flagged for a closer look

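The effects of the hairpins against SC differed by the direct test of SH2 against SH3 (edgeR, adjusted p below 0.05) for the members named here. In RNA the difference SH2 minus SH3 (log2) was -1.53 for MRPL37, -1.14 for MRPS5, -1.01 for MRPS35, -0.86 for MRPS30, -0.50 for MRPS9 and -0.32 for MRPS18B. It was 0.46 for MRPL18, 0.35 for MRPS34 and 0.33 for MRPL17. In footprints it was -1.50 for MRPS5, -1.32 for MRPL37, -0.95 for MRPS35 and -0.66 for MRPS30. It was 1.28 for MRPL12, 0.84 for MRPS36, 0.81 for MRPS12 and 0.57 for MRPS10. MRPL12 was not called without SH2 replicate 3 (0.83, adjusted p = 0.167), SH3 replicate 1 (1.09, adjusted p = 0.100) or SH3 replicate 2 (1.11, adjusted p = 0.131). MRPS18B was not called without SH2 replicate 3 (-0.26, adjusted p = 0.0544), SH3 replicate 1 (-0.30, adjusted p = 0.0515) or SH3 replicate 2 (-0.28, adjusted p = 0.0531). MRPS9 was not called in RNA without any 1 of 5 of the 6 hairpin replicates, with differences of -0.41 to -0.49. MRPS10 was not called without SH2 replicate 1 or 3 or any SH3 replicate, with differences of 0.45 to 0.58.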

How the results depend on the processing

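A count of calls is given here where it moved by more than 1.5 times. Scaling by DESeq2's size factors moved no count of members called by that much and no subunit median beyond the spread between replicates, though MRPL17 RNA in SH3 became a call (-0.25, adjusted p = 0.0369). Among changes of named members that at least 1 setting called, none turned its direction under any setting run. Changes that no setting called were not checked for this. At an adjusted p below 0.01, members lower and higher in footprints were 15 and 2 in SH2, 7 and 1 in SH3, and 6 and 2 for SH2 against SH3, members lower and higher in RNA for SH2 against SH3 were 11 and 0, and the lower ratio count in SH2 was 0. DESeq2's Wald test gave 11 members lower in the ratio in SH2, 4 in SH3 and 1 for SH2 against SH3, with no share over all genes counted. With no filter on low counts, 1 member was lower in the ratio in SH3, and with the groups compared alone 1 was lower in SH2. With the replicate number as a block, 6 in place of 2 members were higher in footprints in SH3; for SH3 the libraries share only a number, and no other count of members moved by more than 1.5 times, though single calls were gained (MRPL42, MRPL48 and MRPS10 in RNA between the hairpins, and MRPS9, MRPL48 and MRPL18 in footprints in SH3). For the pairing of SC with SH2, the blocked calls that differ (MRPS36, MRPS10 and MRPS5) are given beside their results, and no other call of a named member against SC in SH2 changed. With footprints thinned to 1 depth, 1 member was higher in footprints in SH3, MRPL minus MRPS there was 0.027, and the MRPL ratio median in SH2 was -0.30.

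With subunits assigned by structure the MRPS median in RNA in SH2 was -0.041, and with members of other symbols it was -0.019 and MRPL minus MRPS 0.050. Over members with no pseudogene or overlap, chosen after the data were seen, the RNA medians in SH2 were 0.11 for MRPL and -0.14 for MRPS (difference 0.25), and the difference in SH3 was 0.088. Footprint values there were -0.18 for MRPL and a difference of 0.0077 in SH2, and -0.21 for MRPS and a difference of 0.068 in SH3. The MRPS ratio median in SH2 was 0.068 over these members, and the difference -0.44. The cause of these shifts was not tested.

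With 1 replicate left out in turn, members higher in RNA were 14 to 20 in SH3, and for SH2 against SH3 0 to 6 higher and 11 to 19 lower. The RNA medians in SH2 were -0.052 to 0.029 for MRPL, with a difference from MRPS of 0.0045 to 0.085, and in SH3 -0.050 to 0.057 for MRPS. In footprints 2 to 4 members were higher and 16 to 25 lower in SH2, 1 to 5 and 8 to 13 in SH3, and 2 to 5 and 6 to 12 for SH2 against SH3. MRPL minus MRPS in footprints was -0.14 to -0.0083 in SH2. It was -0.076 to 0.069 in SH3, where MRPL lay at -0.17 to -0.055 and MRPS at -0.17 to -0.036. In the ratio in SH2, 0 to 5 members were lower, with medians of -0.36 to -0.19 for MRPL and -0.19 to -0.039 for MRPS. Footprint depth limits the ratio: 15 members had a median footprint count under 100, and 3 in RNA.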

Other observations

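In the authors' deposited table, the columns for the ratio of footprints to RNA held identical log2 fold changes and p-values for SH2 and SH3 in all 17017 genes. Over 12531 genes, the median absolute difference of the authors' deposited ratio from the ratio change computed here was 0.00474 for SH3 and 0.261 for SH2 (log2). The log2 changes in the ratio columns labelled SH2 therefore carry no SH2 value of their own. The p-values may not belong to SH3 alone: MRPS16 has a log2 change of -0.0102 with an adjusted p of 0.00940 (authors' DESeq2). What they test was not settled here. In both sets of columns 11 members have an adjusted p below 0.05 and a negative log2 change. That is not a count of ratio falls in either hairpin. In the authors' deposited table, 19 members are higher and 21 lower in RNA in SH2, and 19 and 9 in SH3. In footprints the authors' deposited table has 3 higher and 20 lower in SH2, and 2 and 12 in SH3. Shares over all genes were not counted for the authors' columns, so these counts have no background beside them.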
